A study of Homo sapiens with 54 samples.

Results

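The integrated stress response and the unfolded protein response of the endoplasmic reticulum (ER) were followed through 10 genes: ATF4, DDIT3, TRIB3, CHAC1, PPP1R15A, GDF15, XBP1, HERPUD1, HSPA5 and HSP90B1. Each was taken from the rows of the value table whose platform annotation gave exactly 1 gene symbol, by the row with the highest mean where a symbol had more than 1. All 10 were found among 18417 such genes. The cells were NCI-H460, an established human lung cancer line of large cell type, used at passage 9 after purchase and kept without serum for 24 h before any agent was added, controls included. Cultures received smoke extract at 5 uM nicotine equivalent, nicotine at 5 uM, or no pretreatment, and 2 h later 6 Gy of radiation from a cesium source, 1 uM cisplatin, or no therapy. Cells were collected 2 h or 24 h after therapy, which gave 18 groups of 3 arrays: at each time smoke extract, nicotine and untreated, the same 3 pretreatments with radiation, and the same 3 with cisplatin. The results hold for 1 cell line treated once on concurrent plates, and the labels call the 3 arrays of a group biological replicates. Since separate cell stocks are not named, p-values measure the spread between cultures of 1 run.

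In the integrated stress response, kinases that sense amino acid shortage, unfolded protein, heme loss or viral RNA phosphorylate the initiation factor eIF2, which lowers general translation and raises that of ATF4. ATF4, a basic leucine zipper factor, then switches on genes for amino acid supply and redox control, and with them DDIT3, which encodes the factor CHOP. The unfolded protein response adds 2 further sensors, IRE1, which splices the XBP1 messenger RNA, and ATF6, and raises chaperones such as HSPA5 and HSP90B1. ATF4 is set largely by translation and XBP1 by splicing, and the arrays measured neither protein nor splicing. In these bulk samples fewer expressing cells and less RNA per cell cannot be told apart.

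Levels are log2 values as deposited, errors of single groups are SD over 3 arrays, and errors of changes are SE of 1 limma fit over all 54 arrays. A gene was called where its p, adjusted over the 18417 genes by Benjamini-Hochberg, was under 0.05. Arrays of a group correlated at 0.979 to 0.996 over all rows, 0 pairs of arrays were identical, and array medians lay between 6.43 and 6.63. The keratins KRT8, KRT18 and KRT19 read between 10.93 and 12.16 on every array, while the epithelial markers EPCAM and CDH1 read at most 5.66 and 5.39. That is below 6.09, the 95th percentile of the mean level of 361 olfactory receptor genes, which epithelial cells are not known to use. Of 4 leukocyte markers 1 lay above that level by its median (CD14), of 5 fibroblast markers 4 (COL1A1, COL1A2, LUM and PDGFRB) and of 5 endothelial markers 0. The mean of the fibroblast markers per array ran from 5.83 to 6.31, while DCN stayed at or below 3.50. Of these markers 3 were called higher with smoke extract at 24 h (11.9% of all genes). With radiation at 24 h 2 were called higher (15.9% of all genes). The part of these markers in the results was not tested. The 10 genes read between 6.57 and 12.29. In 4 arrays the mean of the olfactory receptor genes lay 0.18 to 0.22 from its group mean, namely radiation + smoke extract 24 h replicates 2 and 3, nicotine 24 h replicate 2 and cisplatin 2 h replicate 3. They are called the 4 arrays that stood apart, but were taken by rank, and the next lay at 0.16. Leaving them out keeps 1 array of radiation + smoke extract 24 h, which limits every comparison that uses this group.

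The promoters of 4 of the genes are shown because they carry the textbook elements of these pathways and because the 4 genes behaved differently. They are the 250 bases before the annotated start, from RefSeq on GRCh38.p14, where all 10 genes were matched. Capitals mark the matched elements. TGATGNAA is the composite element of C/EBP and ATF factors, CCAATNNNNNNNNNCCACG is the ER stress element, which ATF6 binds together with the factor NF-Y, and ATTGGNCCACG is its second form. The C/EBP-ATF matches and 1 of the ER stress elements of HSP90B1 lie on the strand opposite to the gene and are printed as reverse complements.
CHAC1, chr15:40953221-40953470, plus strand: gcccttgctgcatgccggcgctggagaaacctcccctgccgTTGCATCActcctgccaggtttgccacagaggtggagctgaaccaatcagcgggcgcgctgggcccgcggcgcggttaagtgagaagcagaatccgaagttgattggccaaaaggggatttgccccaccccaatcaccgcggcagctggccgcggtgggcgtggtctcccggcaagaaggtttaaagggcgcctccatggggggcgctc
HERPUD1, chr16:56931892-56932141, plus strand: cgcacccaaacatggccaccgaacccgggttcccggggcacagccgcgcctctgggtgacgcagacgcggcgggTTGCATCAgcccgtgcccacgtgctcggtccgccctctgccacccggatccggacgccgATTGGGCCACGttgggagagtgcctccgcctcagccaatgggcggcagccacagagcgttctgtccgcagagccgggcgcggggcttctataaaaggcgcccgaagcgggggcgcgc
HSPA5, chr9:125241344-125241593, minus strand: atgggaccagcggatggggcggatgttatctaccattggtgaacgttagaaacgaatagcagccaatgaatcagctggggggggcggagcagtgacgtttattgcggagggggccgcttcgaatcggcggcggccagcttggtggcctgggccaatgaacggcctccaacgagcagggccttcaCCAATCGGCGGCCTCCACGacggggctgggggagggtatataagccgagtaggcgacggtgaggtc
HSP90B1, chr12:103930160-103930409, plus strand: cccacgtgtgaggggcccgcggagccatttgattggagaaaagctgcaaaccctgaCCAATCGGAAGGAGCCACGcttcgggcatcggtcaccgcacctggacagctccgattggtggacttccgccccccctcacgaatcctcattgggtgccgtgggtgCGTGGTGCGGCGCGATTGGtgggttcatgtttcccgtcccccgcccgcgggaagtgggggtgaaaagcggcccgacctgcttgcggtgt

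Both strands were searched in the 300 bases from 250 before the start to 50 after it. The C/EBP-ATF element was found in CHAC1 and HERPUD1, with outer ends at positions -209 and -176 from the start, and in 3.62% of all 35116 promoters of that length. The ER stress element was found once in HSPA5 and 2 times in HSP90B1, and in 0.0769% of all promoters. Its second form was found in HERPUD1 and in 0.0541% of all promoters. The core TGACGTG of the unfolded protein response element, held by 1.97% of promoters, was in 0 of the 10. GCGTG, the core bound by the aryl hydrocarbon receptor and held by 36.5% of promoters, was in 7 of the 10, with 6 copies in TRIB3, 4 in PPP1R15A and 0 in GDF15, HERPUD1 and HSPA5. In HSP90B1 both copies of that core overlap its ER stress elements. In the mean over therapy arms CHAC1 and HERPUD1 fell with smoke extract at both times, whereas HSPA5 and HSP90B1, the pair with the ER stress element, were not called at 2 h and changed by -0.19 and -0.02 at 24 h. These matches describe the sequence only.

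Smoke extract raised PPP1R15A and GDF15 at 2 h, and it lowered 4 of the 10 genes at 2 h and 7 at 24 h. Averaged over the 3 therapy arms (9 arrays with smoke extract against 9 without pretreatment), 6 of the 10 genes were called at 2 h, where 9.28% of all genes were called. PPP1R15A and GDF15 rose (background for higher calls 4.22%) and DDIT3, CHAC1, XBP1 and HERPUD1 fell (background for lower calls 5.06%). At 24 h, 8 of the 10 were called, against 27.7% of all genes. One was higher, PPP1R15A (background 11.9%), and 7 were lower, the same 4 and ATF4, TRIB3 and HSPA5 (background 15.7%). The median change of the 10 was -0.05 at 2 h and -0.17 at 24 h, beside 0.00 and 0.03 over all genes.

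**Figure D1:**
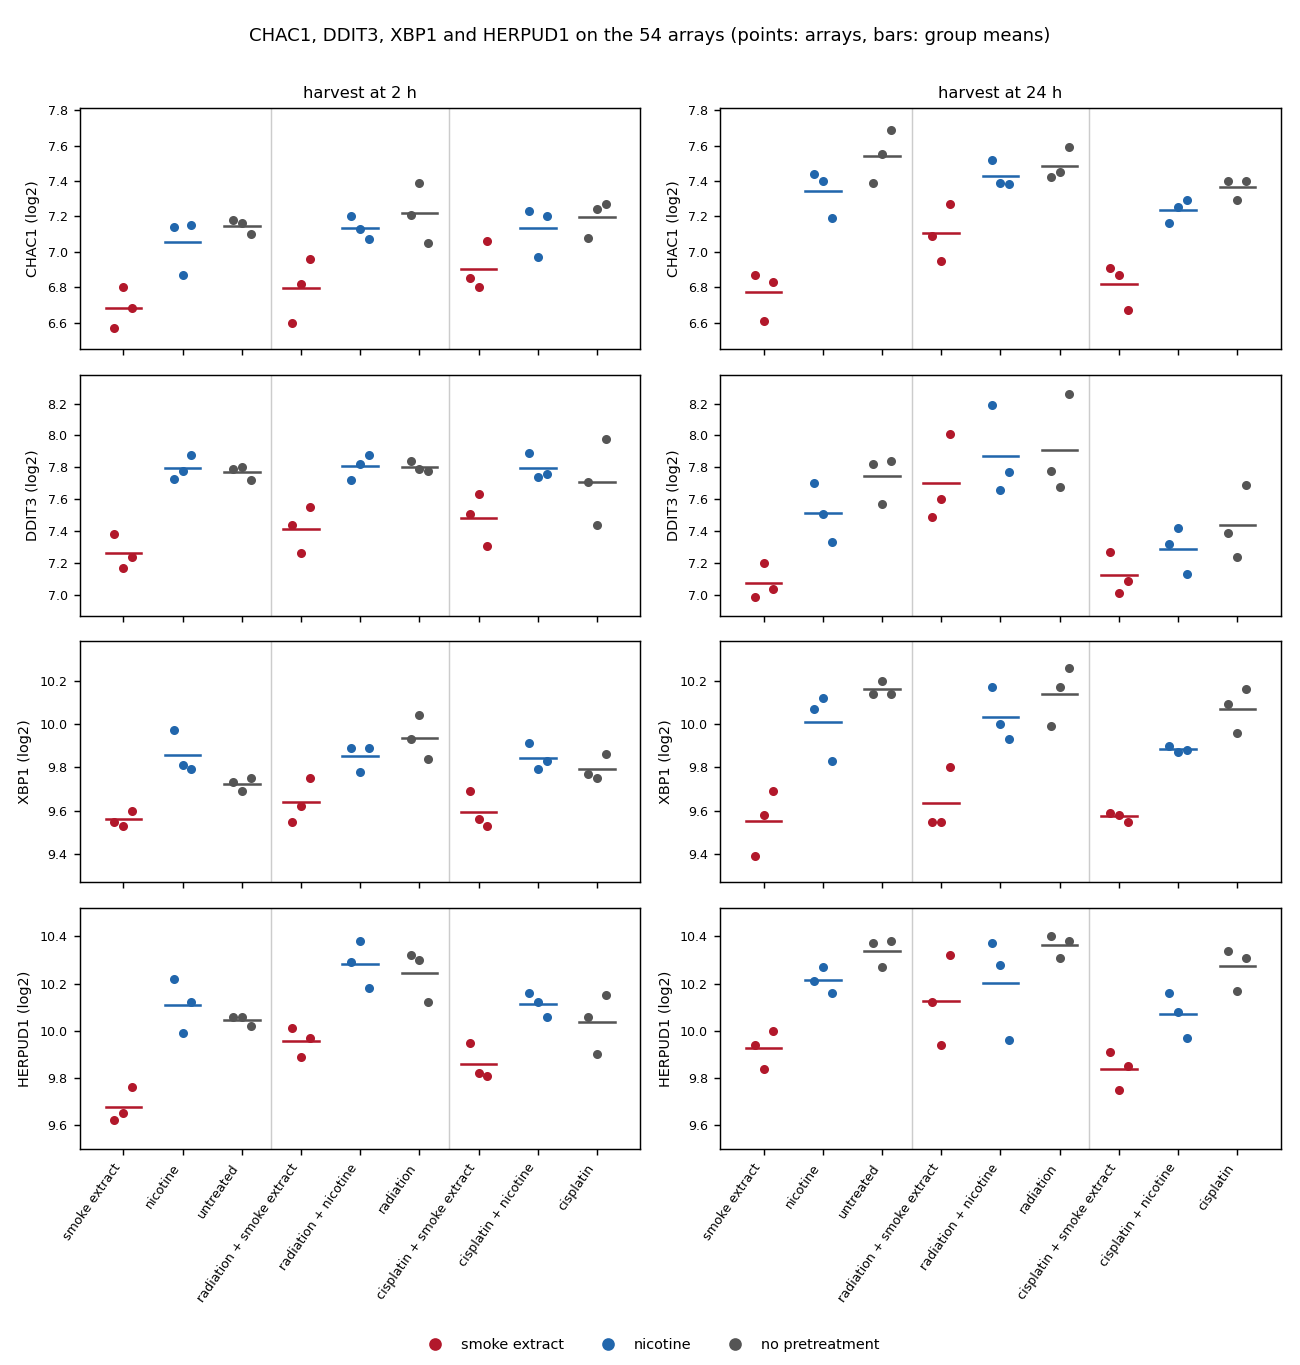
Level (log2) of CHAC1, DDIT3, XBP1 and HERPUD1 on every array, with groups along the x axis, harvest at 2 h on the left and at 24 h on the right; points are arrays and bars are means of 3. In each therapy arm the red smoke extract group has the lowest mean, as for CHAC1 at 24 h, where the 9 smoke extract arrays lie between 6.61 and 7.27 and the 9 without pretreatment between 7.29 and 7.69.

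CHAC1, a gamma-glutamylcyclotransferase that degrades glutathione and a target of ATF4, had a lower group mean with smoke extract in all 3 arms at both times. At 2 h it read 6.57, 6.80 and 6.68 with smoke extract alone, against 7.18, 7.16 and 7.10 in untreated cells. With radiation it read 6.60, 6.82 and 6.96 with smoke extract, against 7.21, 7.39 and 7.05 without, and with cisplatin 6.85, 6.80 and 7.06, against 7.08, 7.24 and 7.27. In each arm every smoke extract array lay below every array without it. The mean change was -0.39 ± 0.06 (SE, 1.31-fold lower, limma adjusted p = 1.75e-06). At 24 h CHAC1 read 6.87, 6.61 and 6.83 with smoke extract alone, against 7.39, 7.55 and 7.69 in untreated cells. It read 7.09, 6.95 and 7.27 with radiation and smoke extract, against 7.42, 7.45 and 7.59 with radiation, and 6.91, 6.87 and 6.67 with cisplatin and smoke extract, against 7.40, 7.29 and 7.40 with cisplatin. No array of the 9 reached any of the other 9, and the mean change was -0.57 ± 0.06 (1.48-fold lower, adjusted p = 1.3e-10). In order of level at 24 h, the 3 smoke extract groups came lowest, with smoke extract alone (6.77 ± 0.14) and with cisplatin (6.82 ± 0.13) within their spread and radiation + smoke extract (7.10 ± 0.16) above both. The highest of these overlapped the arrays of cisplatin + nicotine (7.16 to 7.29), the next group. The other 6 groups lay between 7.23 ± 0.07 and 7.54 ± 0.15, each neighbour within the spread of the next.

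DDIT3 encodes CHOP, the factor through which prolonged stress favours cell death. At 2 h it read 7.38, 7.17 and 7.24 with smoke extract alone, against 7.79, 7.80 and 7.72 in untreated cells. It read 7.44, 7.26 and 7.55 with radiation and smoke extract, against 7.84, 7.79 and 7.78 with radiation. With cisplatin and smoke extract it read 7.51, 7.63 and 7.31, against 7.71, 7.44 and 7.98 with cisplatin. The groups were apart in the first 2 arms and overlapped in the cisplatin arm. The mean change was -0.38 ± 0.08 (1.3-fold lower, adjusted p = 0.000508). At 24 h the 9 smoke extract arrays ran from 6.99 through a median of 7.20 to 8.01, against 7.24, 7.69 and 8.26 in the 9 without pretreatment, a mean change of -0.40 ± 0.08 (adjusted p = 0.000122). The drop with smoke extract alone, -0.66 ± 0.14 (adjusted p = 0.000494), came from 6.99, 7.20 and 7.04 against 7.82, 7.57 and 7.84 in untreated cells. After radiation the 24 h values overlapped, with 7.49, 7.60 and 8.01 against 7.78, 7.68 and 8.26, and the pair was not called.

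XBP1 encodes the factor that IRE1 activates by splicing. The row cannot separate spliced from unspliced transcript. At 24 h it read 9.39, 9.58 and 9.69 with smoke extract alone, against 10.14, 10.20 and 10.14 in untreated cells. It read 9.55, 9.55 and 9.80 with radiation and smoke extract, against 9.99, 10.17 and 10.26 with radiation, and 9.59, 9.58 and 9.55 with cisplatin and smoke extract, against 10.09, 9.96 and 10.16 with cisplatin. All 9 smoke extract arrays lay below the other 9. The mean change at 24 h was -0.54 ± 0.05 (1.45-fold lower, adjusted p = 3.15e-13), and at 2 h it was -0.22 ± 0.05 (1.16-fold lower, adjusted p = 0.000472). The difference between the 2 times, -0.32 ± 0.06, was itself called (adjusted p = 0.000591).

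HERPUD1, an ER membrane protein that serves the degradation of misfolded proteins, fell by a similar amount at both times. At 2 h it read 9.62, 9.65 and 9.76 with smoke extract alone, against 10.06, 10.06 and 10.02 in untreated cells. Over the 3 arms the change was -0.28 ± 0.05 at 2 h (1.21-fold lower, adjusted p = 2.72e-05) and -0.36 ± 0.05 at 24 h (1.29-fold lower, adjusted p = 6.38e-08). At 24 h the arrays were apart in the arms without therapy and with cisplatin. In the radiation arm they overlapped, with 10.12, 9.94 and 10.32 against 10.40, 10.31 and 10.38.

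**Figure D2:**
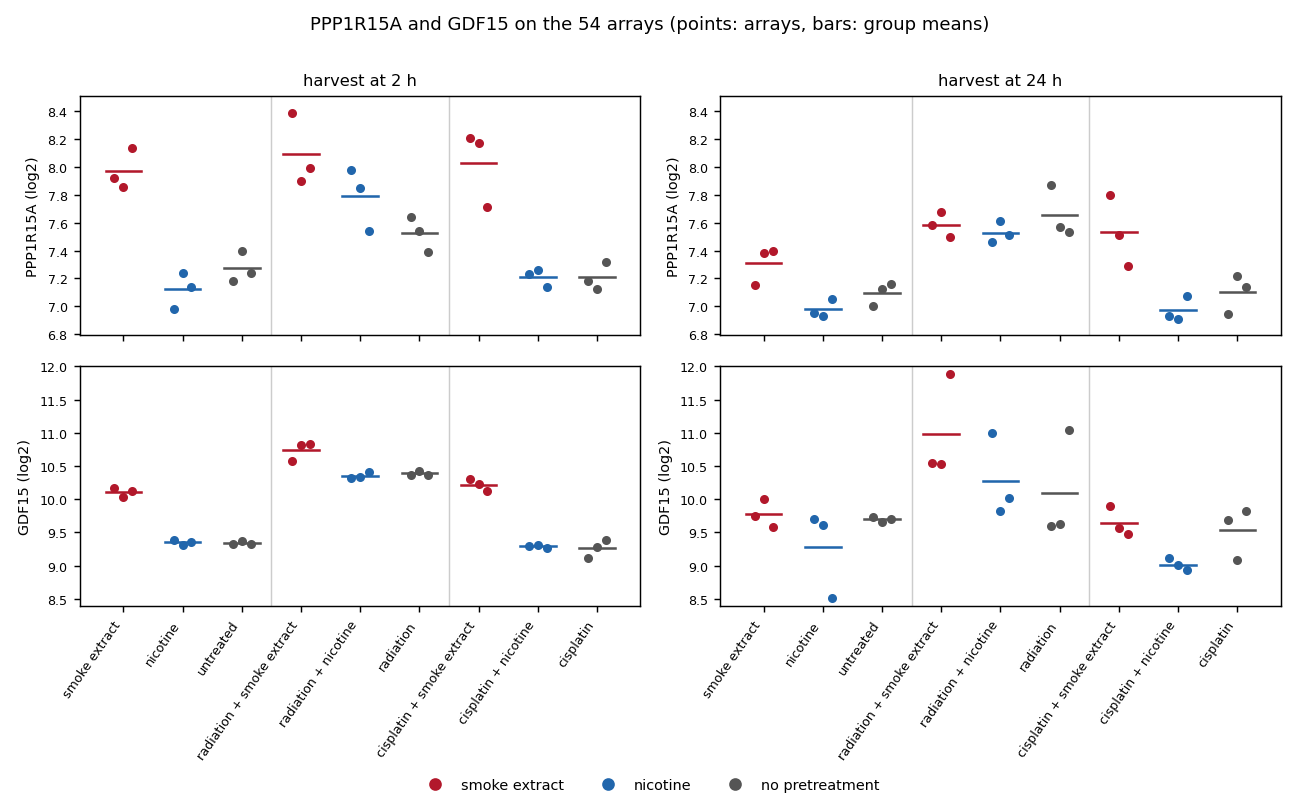
Level (log2) of PPP1R15A and GDF15 on every array, laid out by group and time as for the other genes; points are arrays and bars are means of 3. At 2 h the red smoke extract arrays of PPP1R15A (7.71 to 8.39) lie above all arrays without pretreatment (7.12 to 7.64), and GDF15 splits tightly by smoke extract and by radiation, whereas at 24 h its arrays scatter within groups.

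PPP1R15A encodes GADD34, which brings a phosphatase to eIF2 and so ends the integrated stress response. At 2 h it read 7.92, 7.86 and 8.14 with smoke extract alone, against 7.18, 7.40 and 7.24 in untreated cells. It read 8.39, 7.90 and 7.99 with radiation and smoke extract, against 7.64, 7.54 and 7.39 with radiation, and 8.21, 8.17 and 7.71 with cisplatin and smoke extract, against 7.18, 7.12 and 7.32 with cisplatin. Every smoke extract array was above all 9 without pretreatment, and the mean change was 0.70 ± 0.07 (1.62-fold higher, adjusted p = 1.19e-10). At 24 h the change was 0.19 ± 0.07 (1.14-fold, adjusted p = 0.0393), and this call was lost when any 1 of 9 of the 18 arrays was left out (adjusted p up to 0.128), or without the 4 arrays that stood apart (adjusted p = 0.0838). The radiation arm went the other way at 24 h, with means of 7.59 with smoke extract and 7.66 without (-0.07 ± 0.12, not called). The 24 h effect was lower than the 2 h effect by a called difference, -0.51 ± 0.10 (adjusted p = 0.000451). Within the arms at 24 h only the cisplatin pair was called, with 7.80, 7.51 and 7.29 with smoke extract against 6.94, 7.22 and 7.14 without (0.43 ± 0.12, adjusted p = 0.00993). That call was lost without cisplatin 24 h replicate 1 (0.35, adjusted p = 0.0635) and without cisplatin + smoke extract 24 h replicate 1 (0.30, adjusted p = 0.114).

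GDF15, a secreted stress cytokine of the TGF-beta superfamily that both p53 and the integrated stress response can induce, rose by a similar size at 2 h. It read 10.17, 10.04 and 10.13 with smoke extract alone, against 9.33, 9.37 and 9.33 in untreated cells. With cisplatin and smoke extract it read 10.30, 10.23 and 10.13, against 9.12, 9.28 and 9.38 with cisplatin. With radiation and smoke extract it read 10.58, 10.82 and 10.83, against 10.37, 10.43 and 10.37 with radiation. Smoke extract arrays were the higher ones in all 3 arms, and the mean change was 0.69 ± 0.16 (1.62-fold, adjusted p = 0.00124). The SE is large because 1 spread was fitted over both times, and GDF15 varied within groups by a pooled SD of 0.08 at 2 h and 0.51 at 24 h. For the same reason the SE and p-values of GDF15 at 24 h, here and below, understate its spread at that time. The same limit holds for DDIT3 (pooled SD 0.13 at 2 h and 0.21 at 24 h) and HSPA5 (0.05 and 0.13). It also holds for ATF4 (0.06 and 0.11) and XBP1 (0.07 and 0.11). To a lesser degree it holds for HERPUD1 (0.09 and 0.12) and HSP90B1 (0.05 and 0.07). With the 2 h arrays alone in the fit, an alternative added after the data were seen, the smoke extract alone comparison had an adjusted p of 9.41e-10 for a change of 0.77, against 0.124 in the fit of all arrays. At 24 h the change was 0.36 ± 0.16 and was not called (adjusted p = 0.0778, and 0.00452 to 0.307 over the alternatives). It passed without radiation 24 h replicate 3 (0.52, adjusted p = 0.00452) and without radiation + smoke extract 24 h replicate 1 (0.44, adjusted p = 0.0417) or replicate 2 (0.44, adjusted p = 0.0399), and also after quantile normalization, with array weights and with the olfactory covariate (adjusted p = 0.0473, 0.0108 and 0.0165).

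**Figure D3:**
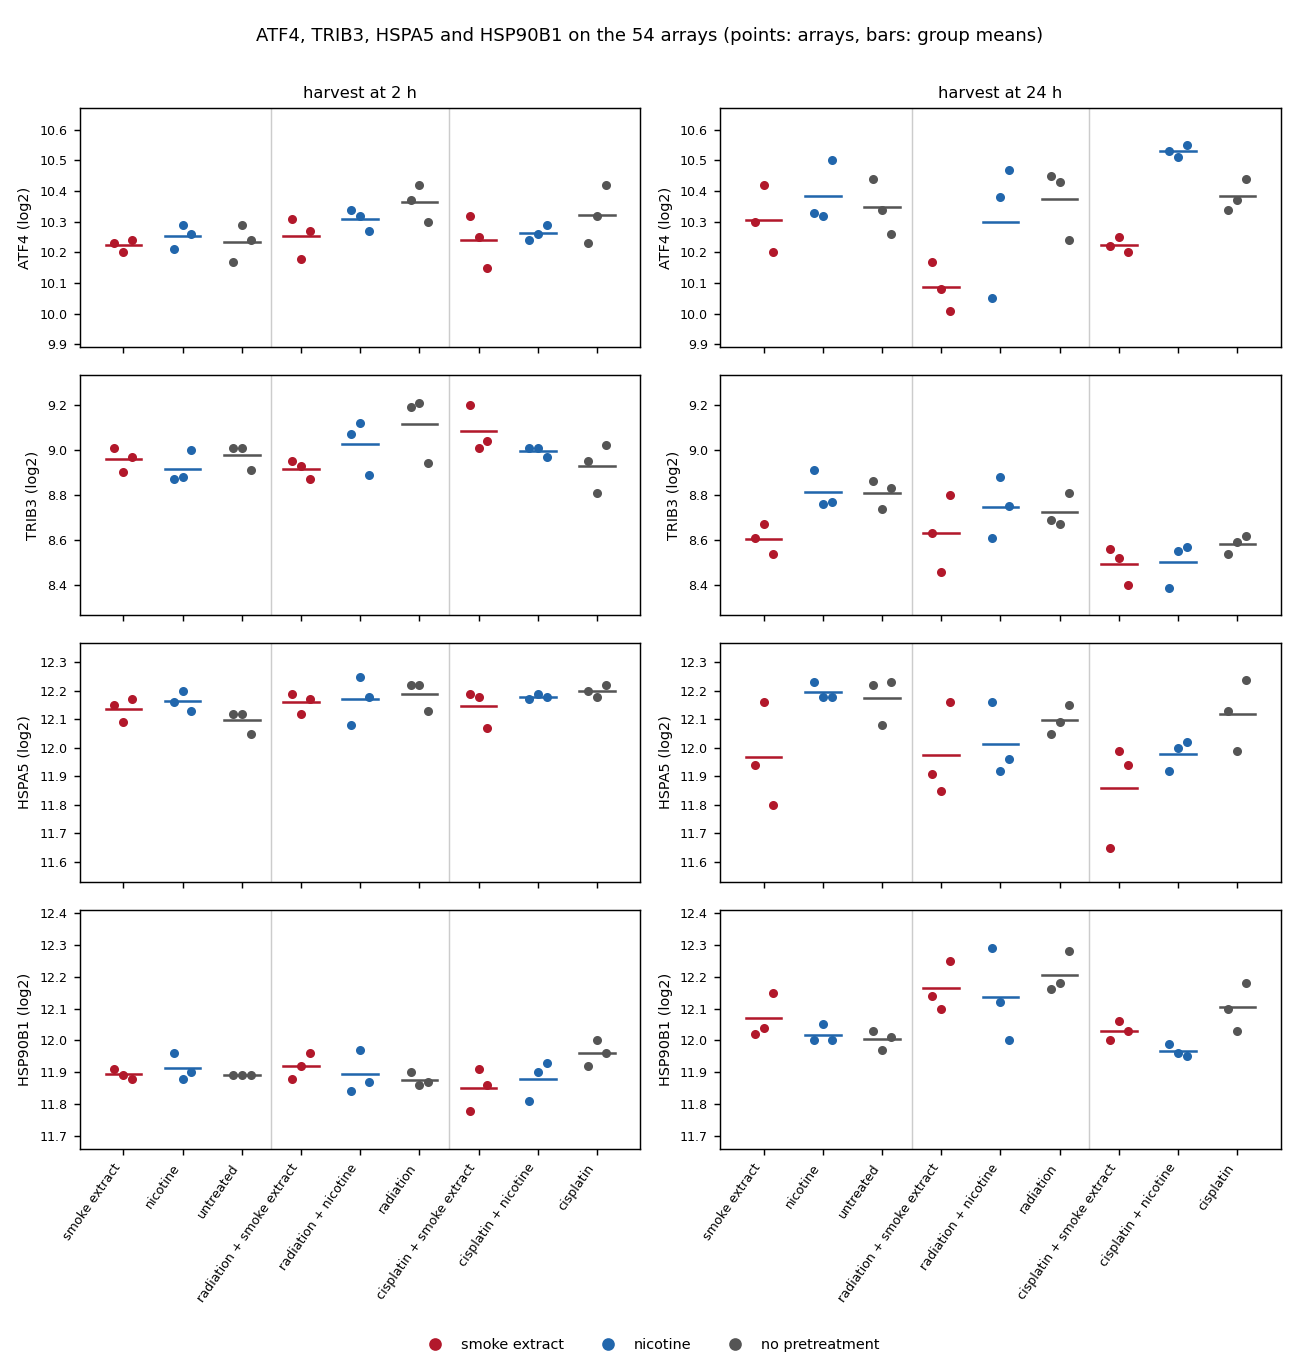
Level (log2) of ATF4, TRIB3, HSPA5 and HSP90B1 on every array, laid out by group and time as for the other genes; points are arrays and bars are means of 3. At 2 h the group means of each gene span at most 0.20, and at 24 h the 3 lowest means of TRIB3 are the cisplatin groups (8.49 to 8.58) and the 3 highest of HSP90B1 the radiation groups (12.14 to 12.21).

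ATF4 itself, and the chaperones, moved little with smoke extract at 2 h. ATF4 changed by -0.07 ± 0.04 at 2 h (adjusted p = 0.434, 95% interval -0.15 to 0.02) and fell by 0.16 on the log2 scale at 24 h (SE 0.04, adjusted p = 0.00274). At 24 h its 9 smoke extract arrays ran from 10.01 through 10.20 to 10.42, against 10.24, 10.37 and 10.45 in the 9 without pretreatment. ATF4 had 2 rows with its symbol, and their group means correlated at -0.13 over 18 groups, so the rows disagree. The second row changed by -0.10 ± 0.07 at 24 h and was not called (adjusted p = 0.3). TRIB3, a pseudokinase induced by ATF4 and CHOP that restrains CHOP, changed by -0.02 ± 0.05 at 2 h (not called) and by -0.13 ± 0.05 at 24 h (adjusted p = 0.0351). That call was lost when any 1 of 8 of the 18 arrays was left out (adjusted p up to 0.125), or without the 4 arrays that stood apart (adjusted p = 0.0527).

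HSPA5 encodes BiP, the main ER chaperone of the HSP70 family, which also holds the sensors inactive. At 2 h its 9 smoke extract arrays lay between 12.07 and 12.19, against 12.05 to 12.22 without pretreatment, a change of -0.02 ± 0.04 that was not called (95% interval -0.10 to 0.07). At 24 h it fell by 0.19 (SE 0.04, 1.14-fold lower, adjusted p = 0.000606), with 11.65 to 12.16 against 11.99 to 12.24. By arm the change at 24 h was -0.21 ± 0.08 with smoke extract alone (not called, adjusted p = 0.0518), -0.12 ± 0.08 after radiation (not called) and -0.26 ± 0.08 with cisplatin (adjusted p = 0.0129). The cisplatin call was lost without cisplatin 24 h replicate 3 (-0.19, adjusted p = 0.146) or cisplatin + smoke extract 24 h replicate 1 (-0.15, adjusted p = 0.181). HSP90B1, which encodes GRP94, the ER member of the HSP90 family, changed by -0.02 ± 0.03 at each time, with 95% intervals from -0.08 to 0.04 at 2 h and from -0.08 to 0.05 at 24 h, and was not called.

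Within single arms, smoke extract alone called 4 of the 10 genes at 2 h (background 3.77%) and 4 at 24 h (16.1%). Added to radiation it called 4 at 2 h (2.66%) and 4 at 24 h (8.23%), and added to cisplatin 2 at 2 h (5.46%) and 5 at 24 h (28.6%). The background of the cisplatin arm at 24 h, 5275 genes, rests on single arrays, being 1450 when replicate 3 of cisplatin 24 h was left out and 7330 when replicate 2 of that group was, and it is 1353 with the olfactory covariate. Without radiation + smoke extract 2 h replicate 1 the radiation arm at 2 h called 0, since PPP1R15A (0.43, adjusted p = 0.0884), CHAC1, XBP1 and HERPUD1 all missed the threshold. The cisplatin arm at 2 h called 1 when cisplatin replicate 1 or 2 or cisplatin + smoke extract replicate 1 or 2 was left out, each time without GDF15 (0.89 to 0.97, adjusted p = 0.0572 to 0.11), and at 24 h it called 3 without cisplatin + smoke extract replicate 1. CHAC1 and XBP1 were called in all 3 arms at 24 h. CHAC1 changed by -0.77 with smoke extract alone, by -0.38 after radiation and by -0.54 with cisplatin (SE 0.10 each). The CHAC1 call after radiation was lost without radiation 24 h replicate 3 (-0.33, adjusted p = 0.0724) and without radiation + smoke extract 24 h replicate 2 (-0.31, adjusted p = 0.115). It was also lost without the 4 arrays that stood apart, which leaves 1 array of radiation + smoke extract 24 h. XBP1 changed by -0.61, -0.51 and -0.50 (SE 0.08 each). ATF4 fell after radiation at 24 h by 0.29 (SE 0.07, adjusted p = 0.00548), with 10.17, 10.08 and 10.01 against 10.45, 10.43 and 10.24 with radiation. This was lost without radiation 24 h replicate 1 (-0.25, adjusted p = 0.0524), with a fit of the compared groups only (adjusted p = 0.17), with the 24 h arrays alone (adjusted p = 0.0564) and with the mean of both ATF4 rows (-0.18, adjusted p = 0.117). Without the 4 arrays that stood apart, which leaves 1 array of radiation + smoke extract 24 h, the change was -0.20. The tests of whether the smoke extract effect at 24 h differed with radiation, or with cisplatin, called 0 of the 10 each (background 2.57% and 0.152%). In limma, 4 members passed an unadjusted p under 0.05 in the first test (ATF4, DDIT3, CHAC1 and GDF15) and 0 in the second. Without radiation 24 h replicate 3 the first test called DDIT3 (0.64, adjusted p = 0.0296) and GDF15 (1.29, adjusted p = 0.016).

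Nicotine at the concentration held by the extract changed few of the 10 genes by this test. At 2 h 0 of 10 were called for the mean over arms, as were 0% of all genes, and 0 of 10 passed an unadjusted p under 0.05. At 24 h XBP1 (-0.15 ± 0.05, adjusted p = 0.045) and HERPUD1 (-0.16 ± 0.05, adjusted p = 0.0412) were called lower, against a background of 5.21%. Both calls were fragile, being lost when any 1 of 13 arrays (XBP1, adjusted p up to 0.126) or any 1 of 11 arrays (HERPUD1, adjusted p up to 0.129) of the 18 was left out. Nicotine alone called 0 of 10 at 2 h (background 0%) and 0 of 10 at 24 h (0.00543%), with 0 at an unadjusted p under 0.05 at either time. Set against nicotine, the same smoke extract arrays as above gave 2 higher and 4 lower members at 2 h (background 10.9%) and 2 higher and 6 lower at 24 h (20.6%). XBP1 at 24 h changed by -0.39 ± 0.05 (adjusted p = 3.88e-09), and the 9 smoke extract arrays lay below all 9 nicotine arrays. GDF15 at 24 h was 0.61 ± 0.16 higher with smoke extract than with nicotine (adjusted p = 0.00284). Single arrays of GDF15 lay far from their groups on both sides. It read 9.70, 9.62 and 8.52 with nicotine alone and 11.00, 9.82 and 10.02 with radiation and nicotine. With radiation and smoke extract it read 10.55, 10.53 and 11.88. DDIT3 at 24 h was lower by a change of -0.26 ± 0.08 (adjusted p = 0.0143), which was lost without radiation + nicotine 24 h replicate 1 (-0.20, adjusted p = 0.0598).

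**Figure D4:**
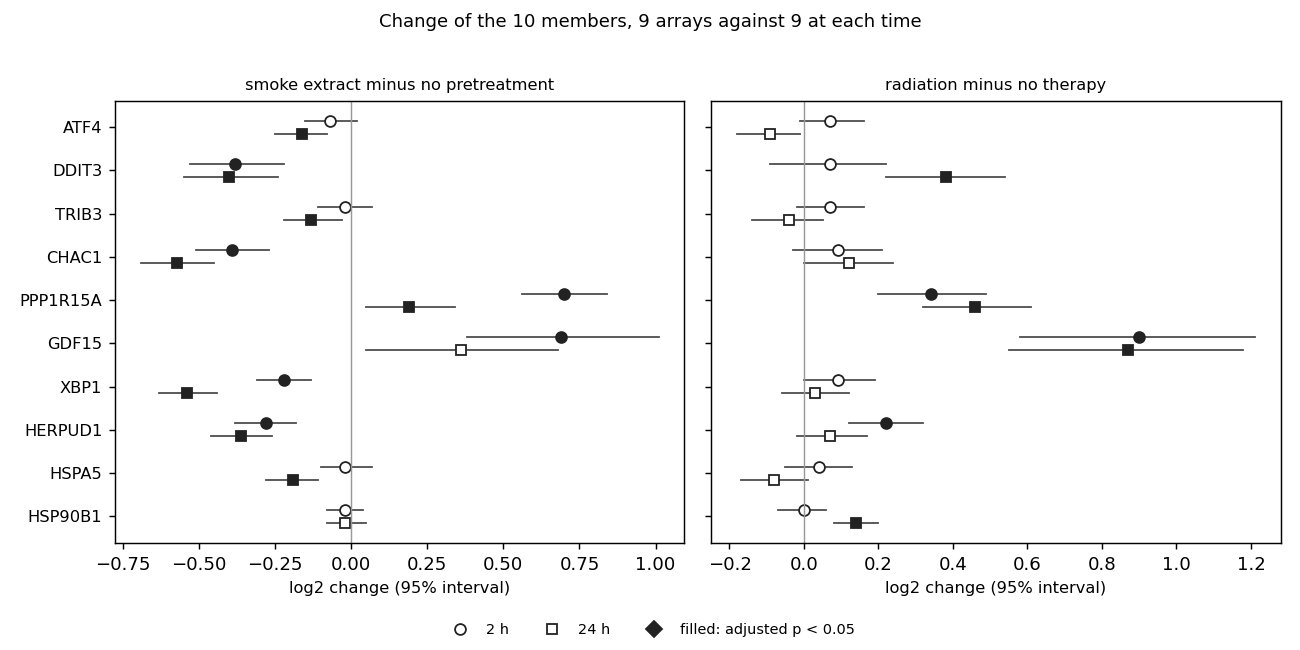
Log2 change of the 10 genes (points) with 95% intervals (lines) for smoke extract minus no pretreatment on the left and radiation minus no therapy on the right, 9 arrays against 9 at each time; filled points passed an adjusted p under 0.05. Smoke extract moves PPP1R15A (0.70 at 2 h) and CHAC1 (-0.57 at 24 h) in opposite directions, whereas the called genes with radiation, led by GDF15 (0.90 at 2 h), are all higher.

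In the mean over pretreatments radiation raised GDF15 and PPP1R15A at both times, and 0 of the 10 were called lower. Averaged over the 3 pretreatments (9 irradiated arrays against 9 without therapy), 3 members were called at 2 h, beside 1.35% of all genes, all 3 higher (background for higher calls 0.559%, for lower calls 0.793%). At 24 h 4 were called, which is near the share of 32.5% over all genes. They were again all higher (background 15.9% higher and 16.6% lower). GDF15 at 2 h read 10.37, 10.43 and 10.37 with radiation, against 9.33, 9.37 and 9.33 in untreated cells. It read 10.32, 10.34 and 10.41 with radiation and nicotine, against 9.39, 9.31 and 9.36 with nicotine, and 10.58, 10.82 and 10.83 with radiation and smoke extract, against 10.17, 10.04 and 10.13 with smoke extract. All 9 irradiated arrays lay above the other 9, and the mean change was 0.90 ± 0.16 (1.86-fold, adjusted p = 0.000237). At 24 h it was 0.87 ± 0.16 (1.82-fold, adjusted p = 1.47e-05), with arrays that overlapped. With radiation alone at 24 h GDF15 read 9.60, 9.63 and 11.04, against 9.73, 9.66 and 9.70 in untreated cells. The mean of that arm rests on the 1 high array, and the pair was not called. PPP1R15A rose by 0.34 ± 0.07 at 2 h (adjusted p = 0.0031) and by 0.46 ± 0.07 at 24 h (1.38-fold, adjusted p = 9.85e-07). At 24 h its irradiated arrays ran from 7.46 to 7.87, against 6.93 to 7.40 without therapy, and did not overlap.

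HERPUD1 rose with radiation at 2 h by 0.22 ± 0.05 (adjusted p = 0.00681) and was not called at 24 h (0.07 ± 0.05, adjusted p = 0.274). DDIT3 was not called at 2 h (0.07 ± 0.08) and rose at 24 h by 0.38 ± 0.08 (1.3-fold, adjusted p = 0.000121), with 7.49, 7.77 and 8.26 as lowest, median and highest of 9 irradiated arrays, against 6.99, 7.51 and 7.84. HSP90B1 rose at 24 h by 0.14 ± 0.03 (1.1-fold, adjusted p = 0.000243), with 12.00, 12.16 and 12.29 against 11.97, 12.02 and 12.15. Radiation alone, 3 arrays against 3, called 0 of 10 at 2 h (background 0.304%, with 3 at an unadjusted p under 0.05) and 2 at 24 h (background 21%), namely PPP1R15A (0.56 ± 0.12) and HSP90B1 (0.21 ± 0.05). GDF15 after radiation alone at 2 h was 1.05 ± 0.27 higher with an adjusted p of 0.0825, and 1.69e-11 with the 2 h arrays alone in the fit. Markers of the p53 response moved with radiation. Of 8 measured p53 targets on the list 7 were higher at 2 h and 8 at 24 h (0.559% and 15.9% of all genes). Their median change was 0.91 and 0.96, beside 0.01 and 0.03 over all genes. With cisplatin at 24 h 4 of the 8 were higher and 0 lower (5.03% of all genes called), and GDF15 was not called. With smoke extract at 2 h, when GDF15 rose, 2 were higher and 2 lower (4.22% and 5.06% of all genes). The part of p53 in the GDF15 rise was not tested.

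Cisplatin at 1 uM moved 1 of the 10. At 2 h 0 of 10 were called for the mean over pretreatments (background 0.0109%, 0 at an unadjusted p under 0.05). At 24 h TRIB3 alone was called (background 5.03%), with 8.39 to 8.62 in the 9 cisplatin arrays against 8.54 to 8.91 in the 9 without therapy, a change of -0.22 ± 0.05 (1.16-fold lower, adjusted p = 0.00265). Cisplatin alone called 0 of 10 at 2 h (background 0.00543%, 0 at an unadjusted p under 0.05) and 0 of 10 at 24 h (background 3.8%, 2 at an unadjusted p under 0.05). Set side by side at 24 h, 7 members were higher with radiation than with cisplatin and 1 lower (background 24.2%). GDF15 differed by 1.05 ± 0.16 (2.08-fold, adjusted p = 5.51e-07), DDIT3 by 0.54 ± 0.08 (1.46-fold, adjusted p = 3.71e-07) and PPP1R15A by 0.39 ± 0.07 (adjusted p = 3.07e-05). ATF4 was the lower one (-0.13 ± 0.04, adjusted p = 0.0219), a call lost without radiation 24 h replicate 3 (adjusted p = 0.0728), radiation + nicotine 24 h replicate 1 (-0.08, adjusted p = 0.108) or radiation + smoke extract 24 h replicate 3 (adjusted p = 0.053), and without the 4 arrays that stood apart (-0.10, adjusted p = 0.162).

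XBP1 and CHAC1, both lowered by smoke extract, rose with time in untreated cultures. In untreated cells 2 of the 10 were called at 24 h against 2 h (background 1.92%), both higher. XBP1 read 10.14, 10.20 and 10.14 at 24 h, against 9.73, 9.69 and 9.75 at 2 h (0.43 ± 0.08, adjusted p = 0.00081). CHAC1 read 7.39, 7.55 and 7.69 at 24 h, against 7.18, 7.16 and 7.10 at 2 h (0.40 ± 0.10, adjusted p = 0.0288), a call lost when any 1 of 5 of the 6 arrays was left out (adjusted p up to 0.215). The smoke extract effect differed between 24 h and 2 h for 2 of the 10 (background 9.12%), PPP1R15A and XBP1 as above. The radiation effect differed for 3 (background 23.4%), with DDIT3 and HSP90B1 more positive at 24 h and ATF4 more negative. The ATF4 call was lost when any 1 of 11 of 36 arrays was left out (adjusted p up to 0.0773) and the DDIT3 call with any 1 of 10 (adjusted p up to 0.0717). Without the 4 arrays that stood apart neither was called (ATF4 -0.15, adjusted p = 0.0949, and DDIT3 0.25, adjusted p = 0.118).

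An F test over the 9 groups of 1 time called 6 of the 10 at 2 h, beside 7.23% of all genes, and 10 of 10 at 24 h, beside 47.6%. The 4 not called at 2 h were ATF4, TRIB3, HSPA5 and HSP90B1. The group means of GDF15 spanned 1.48 at 2 h and 1.97 at 24 h, a wider span than in 99.9% and 99.6% of genes. Those of PPP1R15A spanned 0.97 at 2 h and 0.69 at 24 h, wider than in 99.4% and 89.7% of genes. Those of HSPA5 and HSP90B1 spanned 0.11 each at 2 h, wider than in 3.44% and 4.73%. At 24 h these 2 spanned 0.34 and 0.24, wider than in 40.2% and 13.4%.

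The spread of GDF15 within groups at 24 h came with that of DDIT3 and, less closely, with that of several others of the 10. With radiation at 24 h GDF15 read 9.60, 9.63 and 11.04 and DDIT3 read 7.78, 7.68 and 8.26 on the same arrays. With radiation and nicotine GDF15 read 11.00, 9.82 and 10.02 and DDIT3 8.19, 7.66 and 7.77, and with radiation and smoke extract GDF15 read 10.55, 10.53 and 11.88 and DDIT3 7.49, 7.60 and 8.01. In each of these 3 groups 1 array was high in both genes. The one of radiation + smoke extract, replicate 3, is among the 4 arrays that stood apart. Over 27 arrays at 24 h the deviations of GDF15 and DDIT3 from their group means correlated at 0.89, and at 2 h at 0.34. The 2 values of a point come from the same array. At 24 h the deviations of GDF15 also correlated with those of XBP1 (0.78), HSP90B1 (0.64), CHAC1 (0.62), HERPUD1 (0.52), HSPA5 (0.52) and TRIB3 (0.32). ATF4 and PPP1R15A deviated the other way, at -0.63 and -0.34 with GDF15 at 24 h. The call of GDF15 for smoke extract added to radiation at 24 h (0.89 ± 0.27, adjusted p = 0.027) rests on single arrays. It was lost without radiation + smoke extract 24 h replicate 3 (0.45, adjusted p = 0.333), and without radiation 24 h replicate 1 (0.65, adjusted p = 0.249) or replicate 2 (0.67, adjusted p = 0.239). Without the 4 arrays that stood apart, which leaves 1 array of radiation + smoke extract 24 h, the change was 0.46.

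**Figure D5:**
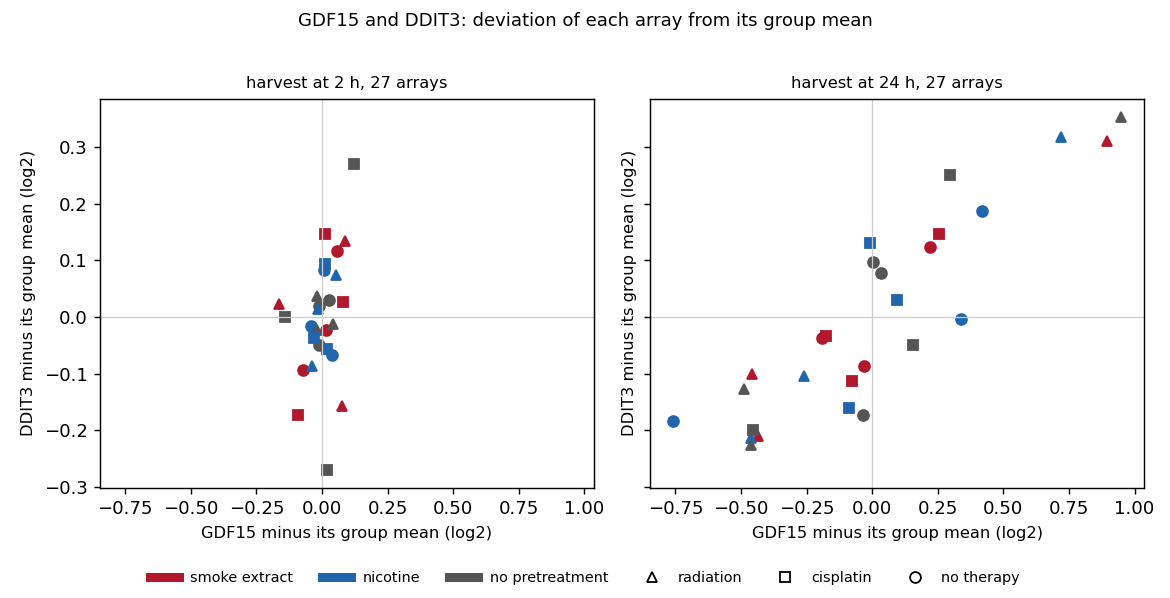
Deviation of each array from its group mean (log2) for GDF15 on the x axis and DDIT3 on the y axis, 27 arrays at 2 h on the left and 27 at 24 h on the right, with colour for pretreatment and shape for therapy. At 24 h the points run along a diagonal (r = 0.89) with 3 irradiated arrays at its upper end, while at 2 h they stay within a narrow band of GDF15.

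Over the 18 group means, some of the genes ran together. CHAC1, XBP1 and HERPUD1 did so (r = 0.94 for CHAC1 and XBP1, 0.89 for CHAC1 and HERPUD1, and 0.89 for XBP1 and HERPUD1), as did PPP1R15A with GDF15 (r = 0.79) and TRIB3 with HSPA5 (r = 0.79). With the mean of each time removed, DDIT3 correlated with CHAC1 at 0.86, with HERPUD1 at 0.84 and with XBP1 at 0.75, and HSPA5 with XBP1 at 0.77, with CHAC1 at 0.69 and with HERPUD1 at 0.65. ATF4 had its highest correlation with XBP1 (0.62 over the group means). These are descriptions over groups that share arrays, plates and agents. Of the genes other than these 10, the group means most like those of GDF15 were CDKN1A (r = 0.90), SLC30A1 (0.88) and OTULINL (0.85). The gene most like DDIT3 was BMAL1 (0.91), most like CHAC1 PDCD1LG2 (0.93), most like XBP1 EFR3B (0.93), most like HERPUD1 RHOB (0.91) and most like PPP1R15A DHRS3 (0.88). For the rest of the 10 they were DDAH1 for ATF4 (0.84), ATP6V0D1 for TRIB3 (0.96), SLC31A1 for HSPA5 (0.93) and SH3YL1 for HSP90B1 (0.97). Time means were not removed for these like genes, so their r also holds the difference between 2 h and 24 h. Among the 10 genes, TRIB3 with HSP90B1 went from -0.73 to 0 once time means were removed.

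Other targets of ATF4 and CHOP, 28 measured of 30 listed, went mainly down with smoke extract at 24 h, when 18 were lower, 4 higher and 6 not called (median -0.21, beside 0.03 over all genes, of which 15.7% were lower and 11.9% higher). PHGDH, the first enzyme of serine synthesis, fell by 0.94 (SE 0.08), CTH, which makes cysteine, by 0.87 (SE 0.09) and ALDH1L2, a mitochondrial folate enzyme, by 0.75 (SE 0.06). STC2, a secreted glycoprotein, rose by 1.72 ± 0.06 (3.3-fold, adjusted p = 2.1e-27). At 2 h 5 were higher, 3 lower and 20 not called (4.22% and 5.06% of all genes). STC2 (2.04 ± 0.06), DDIT4, an inhibitor of the kinase complex mTORC1 (0.76 ± 0.08), and CEBPB, a partner of CHOP (0.43 ± 0.05), rose, and JDP2 fell by 0.31 (SE 0.05). With radiation at 24 h 9 of the 28 were higher, 8 lower and 11 not called (15.9% and 16.6% of all genes), with SESN2 (0.94 ± 0.05), also a p53 target, and NUPR1 (0.62 ± 0.06) higher and PHGDH lower by 0.54 (SE 0.08).

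The other ER chaperones, folding and degradation genes, 31 measured of 32, gave 1 higher, 0 lower and 30 not called with smoke extract at 2 h, against 4.22% higher and 5.06% lower of all genes. The higher one was SEC24D, a coat protein of transport vesicles (0.55 ± 0.05). At 24 h 13 were lower, 0 higher and 18 not called (median -0.08, beside 0.03 over all genes, of which 15.7% were lower). Examples are SEC61B of the translocation channel, which fell by 0.57 (SE 0.14), DNAJC3, a co-chaperone of BiP, by 0.52 (SE 0.10), and SSR1 by 0.49 (SE 0.08). Radiation at 24 h gave 10 higher and 5 lower of the 31, against 15.9% and 16.6% of all genes, the lower count being near that background. CREB3L2 (0.45 ± 0.07), DNAJB9 (0.33 ± 0.08) and SEL1L (0.30 ± 0.06) were among the higher. Of 22 sensors, eIF2 kinases and genes of the eIF2 machinery, 1 was higher with smoke extract at 2 h and 0 lower, which is near the background of 4.22% higher. It was PPP1R15B, the constitutive relative of PPP1R15A (0.39 ± 0.04). At 24 h 5 were lower and 1 higher, against 15.7% and 11.9% of all genes, with ATF6 (-0.27 ± 0.04), the kinase gene EIF2AK3, which encodes PERK (-0.22 ± 0.05), and EIF2AK1 (-0.17 ± 0.05) lower.

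Targets of the aryl hydrocarbon receptor moved with smoke extract beside these genes. Of 4 measured of 5 listed, 3 were higher at 2 h (4.22% of all genes) and 4 at 24 h (11.9% of all genes). CYP1A1 rose by 3.34 ± 0.08 at 2 h and by 4.19 ± 0.08 at 24 h (18.2-fold). With nicotine 0 of the 4 were called at either time, beside 0% of all genes at 2 h and 5.21% at 24 h. The part of this receptor in the changes of the 10 genes was not tested.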

How the data were processed

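Total RNA of 54 NCI-H460 cultures was hybridised to 1-colour Affymetrix arrays. The authors deposited log2 values as a single table, 33297 rows by 54 arrays, made with Affymetrix Power Tools 1.15.0, per the submitters' processing notes; normalization steps and log base are not given in the sources used here, and the base was inferred from the range of values. Of the rows, 19460 had 1 gene symbol, 1754 several and 12083 none. For the 769 symbols with more than 1 row, ATF4 among them, the row with the highest mean was used. limma 3.58.1 in R 4.3.3 (data.table, version 1.17.8) fitted 18 group means with an intensity trend (36 residual degrees of freedom), and p-values were adjusted over 18417 genes in each of 28 comparisons. Precision is limited by how many arrays there are. The 10 genes and the gene lists were chosen with earlier results of these data known. Named list genes are among the up to 4 called genes with the largest change per list and comparison, and like genes are the top 3 by correlation of group means at most. Alternatives covered the fit's samples, trend, normalization, filter, rows, replicate block, array weights, an olfactory receptor covariate and single arrays. The use of arrays of 1 time and the omission of 4 arrays were added after seeing the data.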

Additional observations from a re-analysis of the deposited data

Results flagged for a closer look

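The effect of smoke extract, averaged over therapy arms, differed between harvest times for 2 of the 10 genes by the limma test of the difference itself (background 9.12%). PPP1R15A changed by 0.19 at 24 h and by 0.70 at 2 h, a difference of -0.51 ± 0.10 (SE, adjusted p = 0.000451). XBP1 changed by -0.54 at 24 h and by -0.22 at 2 h, a difference of -0.32 ± 0.06 (adjusted p = 0.000591). The effect of radiation differed between times for 3 of the 10 genes, which is near the background of 23.4%. DDIT3 changed by 0.38 at 24 h and 0.07 at 2 h, a difference of 0.32 ± 0.11 (adjusted p = 0.0324), and HSP90B1 by 0.14 and 0.00, a difference of 0.14 ± 0.04 (adjusted p = 0.011). ATF4 changed by -0.09 at 24 h and 0.07 at 2 h, a difference of -0.17 ± 0.06 (adjusted p = 0.0343), although neither effect was called on its own. Without the 4 arrays farthest in olfactory mean the DDIT3 and ATF4 differences were not called (adjusted p = 0.118 and 0.0949).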

How the results depend on the processing

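Of 78 called results of the 10 genes, 55 kept direction and call under every alternative run, 23 lost the call under at least 1, and 0 reversed; of 202 uncalled results 52 passed under at least 1. Numbers of the 10 genes called moved as follows. In a fit of the compared groups only, 1 was called for radiation alone at 2 h (0 with all arrays), 0 for nicotine at 24 h (2), 1 for smoke extract added to radiation at 24 h (4), 3 for smoke extract added to cisplatin at 24 h (5) and 4 for untreated time (2). Over all genes that fit called, in the same order, 222 (56), 32 (959), 651 (1516), 1957 (5275) and 2681 (354). Nicotine at 24 h also gave 0 without a trend, after quantile normalization, with all rows, with the olfactory covariate and with arrays of 1 time. Cisplatin alone at 24 h (0) gave 1 after quantile normalization and 2 with the covariate. Radiation alone at 2 h gave 1 with genes above the median, the covariate, arrays of 1 time and without the 4 arrays, and cisplatin at 24 h (1) gave 2 with genes above the median. Smoke extract added to radiation at 24 h gave 2 with arrays of 1 time. The omission of the 4 arrays, which keeps 1 array of radiation + smoke extract 24 h, also lowered that count. It lowered the count for the radiation effect between times (3) as well. Array weights gave 6 for radiation at 2 h (3), 6 for radiation alone at 2 h, 7 for smoke extract added to radiation at 2 h (4), 5 added to cisplatin at 2 h (2), 4 for cisplatin at 24 h, 3 for cisplatin alone at 24 h, 6 for untreated time, 5 for the smoke extract effect between times (2), 6 for the radiation effect between times and 3 for the smoke extract by radiation interaction (0). Counts over all genes rose with array weights as well. In the same order they were 2393 (249), 1753 (56), 2807 (490), 4719 (1005) and 3800 (927). The remaining comparisons had 3565 (700), 3138 (354), 5422 (1679), 8129 (4303) and 3239 (474). With the replicate block, nicotine at 24 h gave 1 and untreated time 1. Same-numbered deviations correlated at -0.00225 on average at 2 h and 0.0222 at 24 h, with 36 and 37 of 108 pairs over 0.1. Single pairs ran from -0.73 to 0.68 at 2 h and from -0.48 to 0.73 at 24 h. The plate of each culture is not given, so these averages cannot decide whether replicate numbers pair some of the samples.

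Leaving out single arrays gave 1 to 2 for untreated time, 0 to 4 and 2 to 4 for smoke extract added to radiation at 2 h and 24 h, 1 to 3 and 3 to 6 added to cisplatin, 0 to 3 for nicotine at 24 h, 1 to 2 for cisplatin at 24 h, 1 to 3 for the radiation effect between times and 0 to 2 for the smoke extract by radiation interaction. Over all genes, array weights called 4612 for smoke extract at 2 h (1710 with equal weights), 7681 at 24 h (5096), and for radiation 2393 at 2 h (249) and 9784 at 24 h (5992). Nicotine at 24 h ranged from 26 to 2666 genes (959), cisplatin at 24 h from 248 to 3800 (927), smoke extract added to cisplatin at 24 h from 1353 to 7658 (5275) and untreated time from 132 to 3138 (354). The cause was not tested.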
